A study of Homo sapiens with 4 samples.

Results

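The RAS-MAPK cascade and its feedback genes were described in MV4-11R, a drug-resistant acute myeloid leukaemia line, against its parent MV4-11. The genes were chosen by name: 35 were listed, and 32 of them were measured among 18417 genes. The members comprise 14 genes of the cascade and its regulators, 11 of them measured, and 21 feedback and output genes, all 21 measured. NRAS, BRAF and RASA1 are not analysed here. MV4-11R had been derived from the parental line over 3 months in culture with ever more PKC412, the multikinase and FLT3 inhibitor midostaurin, and the labels call it resistant with low EZH2. MV4-11 carries an MLL fusion and an internal tandem duplication that activates the receptor kinase FLT3, and is labelled sensitive with high EZH2. RNA of each line was hybridised to 2 expression arrays (4 in all). The labels do not say whether MV4-11R is a single clone, whether PKC412 was present when RNA was taken, or whether the arrays of a line came from separate cultures, so p-values measure the spread between arrays, which may be technical.

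In this pathway an active receptor such as FLT3 binds the adaptor GRB2, which brings the exchange factor SOS1 to RAS. GTP-bound RAS starts the relay of RAF, MEK and ERK kinases, and GTPase-activating proteins such as NF1 switch RAS off. ERK then induces genes for its own inhibitors, among them DUSP phosphatases and Sprouty and SPRED proteins, along with ETS factors of the ETV family, and in leukaemia cells with mutant FLT3 this output is known to depend on the receptor. The arrays measured RNA, not phosphorylation.

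Array medians lay between 6.75 and 6.78 on the log2 scale of the signal, and arrays correlated across genes at 0.993 within MV4-11R, 0.994 within MV4-11 and 0.968 to 0.974 between the lines. As a rough guide to background, 341 olfactory receptor genes had a 95th percentile of level of 6.26. Of 9 measured myeloid markers 7 lay above that guide in both lines, and 3 of the 9 fell (LYZ by 0.69 and ANPEP by 1.18 on the log2 scale, and FLT3). Of 5 T and NK cell markers CD3D, CD3E and CD2 lay under the guide in both lines, while CD8A and NKG7 lay above it and NKG7 rose 1.92-fold. Of 4 measured B cell markers 3 lay above it, among which CD79B fell by 1.09 and PAX5 rose by 0.80. Of 4 measured erythroid markers 2 lay above it in both lines, as did 3 of 5 epithelial and fibroblast markers, and 0 of either list rose or fell. A level above the guide therefore does not by itself show that a gene is expressed. The part of other cell types in the results was not tested. FLT3 averaged 10.83 in MV4-11R and 11.76 in MV4-11, a difference of -0.93 (SE 0.11, adjusted p = 0.00526 by limma). EZH2 read 9.90 and 9.29 in MV4-11R, on either side of MV4-11 at 9.75 and 9.74 (difference -0.14, SE 0.20, adjusted p = 0.734, or 0.16 without MV4-11R replicate 2), so its RNA did not show the labelled difference beyond the spread between arrays.

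The genes that rose were feedback and output genes. Of the 21 feedback and output genes 7 rose (SPRY1, DUSP16, ETV4, DUSP6, DUSP1, IER3 and DUSP5), by 1.59-fold to 2.51-fold, 2 fell (DUSP4 and DUSP10) and 12 did not pass. Of the 11 cascade and regulator genes 0 rose, 2 fell (MAPK3 and CBL) and 9 did not pass. A gene was said to rise or fall at an adjusted p under 0.05 in limma's test over all genes, and among all genes 7.92% rose and 7.13% fell by the same rule, 15.1% in all. The shares here were 33.3% rising and 9.52% falling among feedback and output genes, and 0% and 18.2% in the cascade. The median difference, MV4-11R minus MV4-11 in log2 units, was 0.32 for feedback and output genes, -0.12 for the cascade and 0.01 over all genes. Whether the 2 groups of members differ was not tested, and the members were listed with earlier results of these arrays known.

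**Figure D1:**
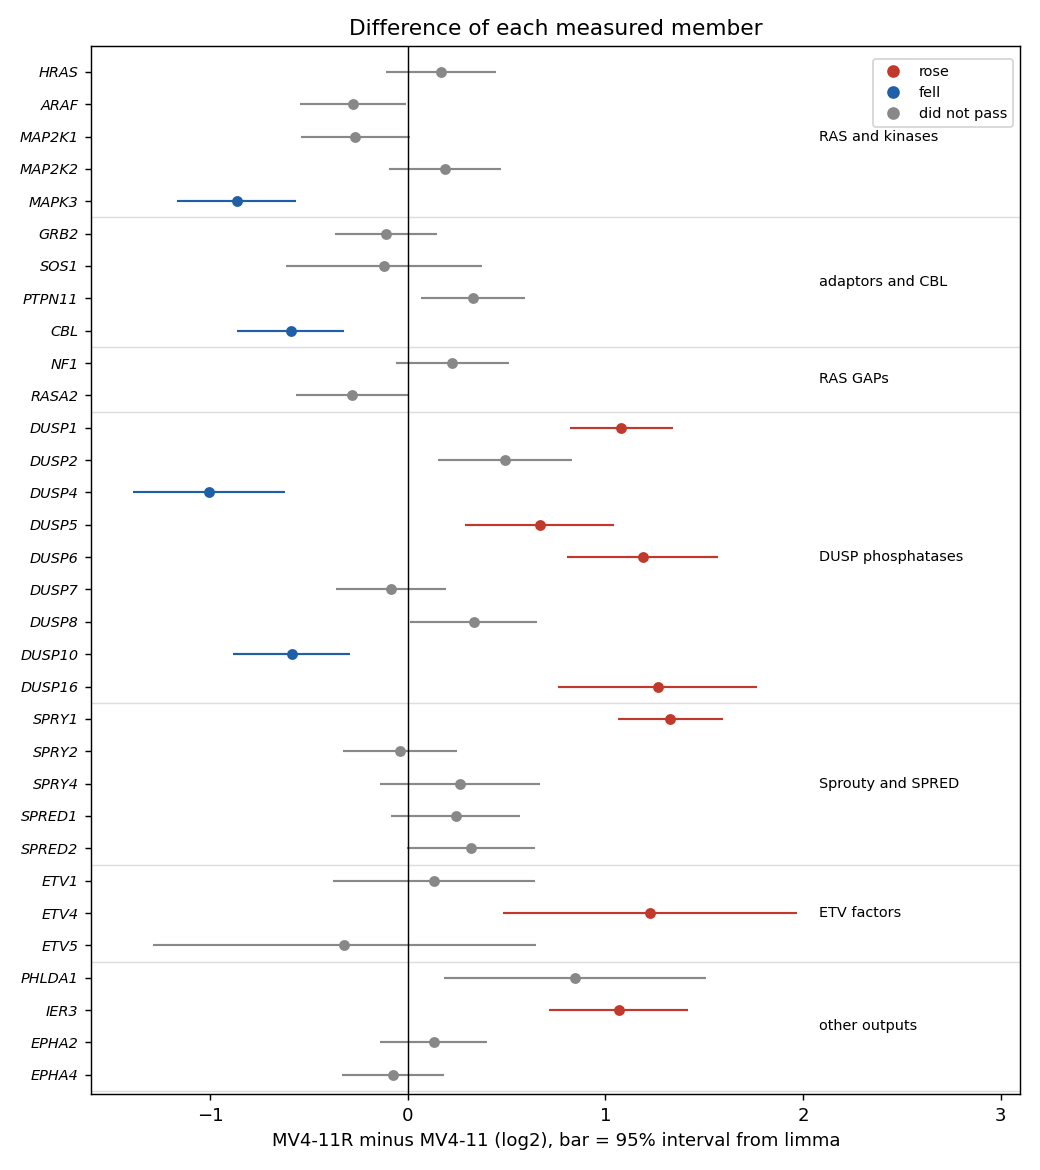
Difference of each of the 32 measured members, MV4-11R minus MV4-11 in log2 units (x axis), by role from top to bottom; points are limma's estimates from 2 arrays per line and bars their 95% intervals, with rises in red, falls in blue and genes that did not pass in grey. The 7 rises all belong to feedback and output genes, and the 4 falls are split between both groups.

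Among the genes that pass the signal inward, 1 fell and 0 rose, where 7.13% of all genes fell and 7.92% rose. MAPK3, which encodes ERK1 (Entrez gene 5595, chromosome 16), read 10.66 and 10.81 in MV4-11R, against 11.51 and 11.68 in MV4-11. Both MV4-11R arrays lay below both MV4-11 arrays, and the gene fell by 0.87 on the log2 scale (SE 0.12, adjusted p = 0.00939), a 1.82-fold change. Arrays of the lines did not overlap for 55.6% of all genes, so separated arrays, here and for the genes below, add little to a call. RNA came from whole cultures, so a change in every cell and a change in the share of cells that express a gene cannot be told apart. The kinases above ERK did not pass. ARAF, a RAF kinase, differed by -0.28 (95% interval -0.55 to -0.01, adjusted p = 0.167). The MEK genes lay on opposite sides, MAP2K1 at -0.26 and MAP2K2 at 0.19 (adjusted p = 0.189 and 0.368), though MAP2K2 stood at -0.03 with the median of its chromosomal neighbours taken off. HRAS, the RAS gene measured here, read 8.18 and 8.20 in MV4-11R and 8.09 and 7.94 in MV4-11, and its interval of -0.11 to 0.45 leaves out a 2-fold change either way.

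The adaptors and regulators gave 1 fall, where 7.13% of all genes fell. CBL, the ubiquitin ligase that marks activated receptor kinases such as FLT3 for degradation (Entrez gene 867, chromosome 11), read 10.16 and 10.29 in MV4-11R, against 10.79 and 10.84 in MV4-11. The lines did not overlap, and CBL fell 1.51-fold (difference -0.59, SE 0.11, adjusted p = 0.0204). That call was lost without MV4-11R replicate 1 (adjusted p = 0.0771), MV4-11 replicate 1 (0.0692) or MV4-11 replicate 2 (0.0837), while the difference stayed between -0.65 and -0.53. PTPN11, which encodes the phosphatase SHP2 that promotes RAS activation, read 10.74 and 10.83 in MV4-11R and 10.48 and 10.43 in MV4-11. Its difference of 0.33 had an interval above 0 (0.07 to 0.60) but an adjusted p of 0.101. GRB2 (-0.11) and SOS1 (-0.12) did not pass, and the SOS1 arrays overlapped, with 9.54 and 10.08 in MV4-11R and 9.80 and 10.07 in MV4-11. Of the GTPase-activating proteins, RASA2 read 7.71 and 7.88 in MV4-11R and 8.04 and 8.11 in MV4-11 (difference -0.28, adjusted p = 0.182), and NF1, the neurofibromatosis gene, differed by 0.23 (adjusted p = 0.282). With the median of their chromosomal neighbours taken off, RASA2 stood at -0.088 and NF1 at 0.014. NF1 has 3 probe sets, of which the 2 dimmer ones hold identical values on every array and differed by 0.11.

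DUSP phosphatases, which remove both activating phosphates from MAP kinases, went in both directions. Of the 9 measured here 4 rose and 2 fell, against 7.92% rising and 7.13% falling among all genes, and the median difference was 0.49. Among inducible nuclear phosphatases, DUSP1 (Entrez gene 1843, chromosome 5), which acts on JNK and p38 as well as ERK, read 8.71 and 8.78 in MV4-11R, against 7.64 and 7.69 in MV4-11. The arrays of a line were 0.07 apart in MV4-11R and 0.04 apart in MV4-11, both MV4-11R arrays were the higher ones, and DUSP1 rose 2.11-fold (difference 1.08, SE 0.11, adjusted p = 0.00316). DUSP5, an ERK-selective nuclear enzyme (Entrez gene 1847, chromosome 10), read 8.77 and 8.40 in MV4-11R, against 7.85 and 7.99 in MV4-11, a 1.59-fold rise (adjusted p = 0.0379). DUSP4, another nuclear ERK phosphatase (Entrez gene 1846, chromosome 8), ran the other way, with 7.18 and 7.51 in MV4-11R against 8.23 and 8.47 in MV4-11. It fell 2.01-fold (95% interval of the difference -1.39 to -0.62, adjusted p = 0.0122), opposite in direction to DUSP1 and DUSP5. DUSP2, the fourth nuclear member, read 7.96 and 7.82 in MV4-11R and 7.25 and 7.54 in MV4-11. The lines did not overlap, but the difference of 0.49 (SE 0.14) gave an adjusted p of 0.0670.

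DUSP6, the cytoplasmic phosphatase that binds ERK and is among the best known reporters of its activity (Entrez gene 1848, chromosome 12), read 9.95 and 10.13 in MV4-11R, against 8.67 and 9.03 in MV4-11. Both MV4-11R arrays lay above both MV4-11 arrays, and DUSP6 rose 2.28-fold (difference 1.19, SE 0.16, adjusted p = 0.00742). DUSP7, its close relative, overlapped between the lines, at 12.16 and 12.32 in MV4-11R and 12.32 and 12.33 in MV4-11 (difference -0.09, 95% interval -0.36 to 0.19, adjusted p = 0.717). Among phosphatases that prefer JNK and p38, DUSP16 (Entrez gene 80824, chromosome 12) read 8.16 and 8.73 in MV4-11R, against 7.30 and 7.05 in MV4-11, a 2.40-fold rise (difference 1.27, SE 0.21, adjusted p = 0.0136). DUSP10 (Entrez gene 11221, chromosome 1) read 9.24 and 9.45 in MV4-11R, against 9.96 and 9.90 in MV4-11, a 1.50-fold fall (adjusted p = 0.0268). DUSP8, the last of them, was at 7.85 and 7.60 in MV4-11R and 7.45 and 7.32 in MV4-11 (difference 0.33, adjusted p = 0.159). Calls on DUSP5 and DUSP10 were lost without MV4-11R replicate 1 (adjusted p = 0.112 and 0.0985), MV4-11 replicate 1 (0.132 and 0.107) or MV4-11 replicate 2 (0.0736 and 0.0764).

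**Figure D2:**
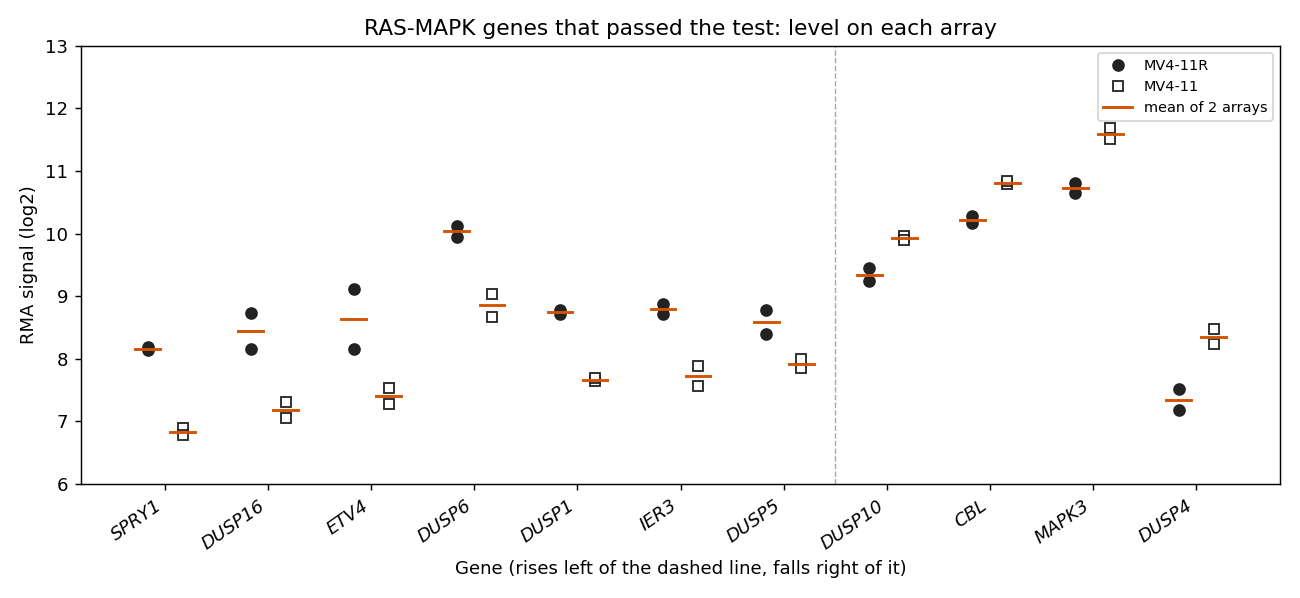
Level on each array of the 11 members that passed the test, as RMA signal in log2 units (y axis), with MV4-11R as filled circles left of MV4-11 as open squares and the mean of the 2 arrays as a bar. For each gene both arrays of a line lie on the same side of the other line, as for 55.6% of all genes. The genes were picked by the test, so this adds no support. ETV4 and DUSP16 show the widest spread within MV4-11R (8.15 and 9.11, and 8.16 and 8.73).

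Sprouty and SPRED proteins, membrane inhibitors of RAS activation, gave a single rise among 5. Among all genes 7.92% rose, and a list this short says little beside that share. SPRY1 (Entrez gene 10252, chromosome 4) read 8.19 and 8.13 in MV4-11R, against 6.89 and 6.78 in MV4-11, a 2.51-fold rise (difference 1.33, SE 0.11, adjusted p = 0.00209). Both MV4-11R arrays lay above both MV4-11 arrays. SPRY2 read 7.76 and 7.63 in MV4-11R and 7.81 and 7.66 in MV4-11. Its arrays overlapped, and the difference was -0.04 (95% interval -0.33 to 0.25, adjusted p = 0.889). SPRY4 and SPRED1 lay under the background guide in both lines and did not pass (differences 0.27 and 0.24). SPRED1 stood at 0.013 with the median of its chromosomal neighbours taken off. SPRED2, which like SPRED1 recruits NF1 to the membrane, read 10.31 and 10.06 in MV4-11R and 9.93 and 9.79 in MV4-11, with a difference of 0.32 (adjusted p = 0.180).

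Promoter windows of RefSeq (GRCh38.p14; 250 bases before to 50 after a start) are shown for the members that rose and had one, to set the letters beside their values, together with DUSP8, which did not pass. Windows were found by symbol for 27 of 35 listed members. Matches on either strand are in capitals: the cyclic AMP response element TGACGTC, the AP-1 motif TGANTCA, the ETS motif CCGGAAG and the Sp1 motif GGGCGG. The CArG box was searched as well and had no match in any member's window. Overlapping matches of a motif count as 1, and motifs that touch run together in capitals.
SPRY1 chr4:123396545-123396844 (+): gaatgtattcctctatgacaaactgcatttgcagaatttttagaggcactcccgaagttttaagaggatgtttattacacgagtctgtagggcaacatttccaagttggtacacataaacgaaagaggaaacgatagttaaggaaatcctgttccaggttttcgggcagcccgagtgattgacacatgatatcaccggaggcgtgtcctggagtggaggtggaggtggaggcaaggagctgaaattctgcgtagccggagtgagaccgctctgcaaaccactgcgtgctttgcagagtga
SPRY1 chr4:123398136-123398435 (+): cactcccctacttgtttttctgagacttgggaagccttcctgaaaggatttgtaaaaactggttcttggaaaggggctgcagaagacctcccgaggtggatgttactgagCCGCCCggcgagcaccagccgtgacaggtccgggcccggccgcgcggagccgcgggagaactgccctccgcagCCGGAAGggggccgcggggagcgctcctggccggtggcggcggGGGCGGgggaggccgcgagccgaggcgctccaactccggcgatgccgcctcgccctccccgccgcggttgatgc
DUSP6 chr12:89352452-89352751 (-): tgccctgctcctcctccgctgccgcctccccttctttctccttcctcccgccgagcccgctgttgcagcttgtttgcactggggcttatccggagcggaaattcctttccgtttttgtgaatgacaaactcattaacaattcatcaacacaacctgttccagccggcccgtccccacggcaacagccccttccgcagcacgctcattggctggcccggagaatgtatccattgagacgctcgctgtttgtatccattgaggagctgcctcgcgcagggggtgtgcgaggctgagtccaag
DUSP16 chr12:12562814-12563113 (-): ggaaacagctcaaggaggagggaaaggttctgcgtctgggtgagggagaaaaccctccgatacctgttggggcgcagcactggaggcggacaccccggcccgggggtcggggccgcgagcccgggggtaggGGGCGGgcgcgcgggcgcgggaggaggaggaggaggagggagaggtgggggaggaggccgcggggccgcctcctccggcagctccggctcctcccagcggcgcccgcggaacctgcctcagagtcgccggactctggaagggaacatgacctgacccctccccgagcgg
DUSP1 chr5:172771146-172771445 (-): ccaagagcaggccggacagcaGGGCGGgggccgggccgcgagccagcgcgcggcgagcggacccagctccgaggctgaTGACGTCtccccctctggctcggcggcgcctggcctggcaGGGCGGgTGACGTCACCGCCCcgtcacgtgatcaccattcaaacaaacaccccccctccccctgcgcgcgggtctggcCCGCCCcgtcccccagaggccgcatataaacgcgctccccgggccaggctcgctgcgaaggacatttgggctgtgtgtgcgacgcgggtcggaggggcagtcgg
DUSP8 chr11:1572222-1572521 (-): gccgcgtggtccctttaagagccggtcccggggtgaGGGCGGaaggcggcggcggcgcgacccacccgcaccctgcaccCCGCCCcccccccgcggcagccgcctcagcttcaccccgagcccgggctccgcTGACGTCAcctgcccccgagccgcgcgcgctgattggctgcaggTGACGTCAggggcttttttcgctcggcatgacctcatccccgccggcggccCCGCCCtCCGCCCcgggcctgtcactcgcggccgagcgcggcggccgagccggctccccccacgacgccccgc

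No motif was common to the windows of genes that rose. DUSP1 had 2 cyclic AMP response elements, from positions 79 and 126 of its window, a motif found in 3.45% of all 35116 windows. DUSP8, which did not pass, also had 2, from positions 133 and 177. The element was in 1 of 5 windows of genes that rose. It was in 4 of 30 windows of members that did not pass, those of DUSP8, NF1, EPHA2 and SPRED2. The downstream SPRY1 window had an ETS match from position 184, a motif found in 10.3% of all windows, and the upstream SPRY1 window and DUSP6 had no match to any motif searched. Sp1 matches occurred in 3 of 5 windows of genes that rose, in 21 of 30 windows of members that did not pass and in 45% of all windows. They also occurred in 3 of 3 windows of members that fell, which belong to MAPK3 and DUSP10 only. A gene can have several windows, and some of these overlap. A match is only a run of letters, not a bound site.

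SPRY2 differed from every other member in its chromosomal surroundings. The median difference of the bright genes next to it on chromosome 13, 15 on each side, was -1.06, whereas for the other 31 members it ran from -0.20 to 0.23. With the median of its neighbours taken off, SPRY2 stood at 1.02 (adjusted p = 0.00598). Here and below, p-values with that median taken off treat it as exact and leave out the spread among the neighbours. For the 11 genes that rose or fell the neighbours' median ran only from -0.17 (IER3) to 0.13 (DUSP5), and 9 of these 11 calls were kept when it was taken off. DUSP5 (0.54, adjusted p = 0.0676) and ETV4 (1.15, adjusted p = 0.0556) lost theirs, and DUSP2 passed (0.56, adjusted p = 0.0468).

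**Figure D3:**
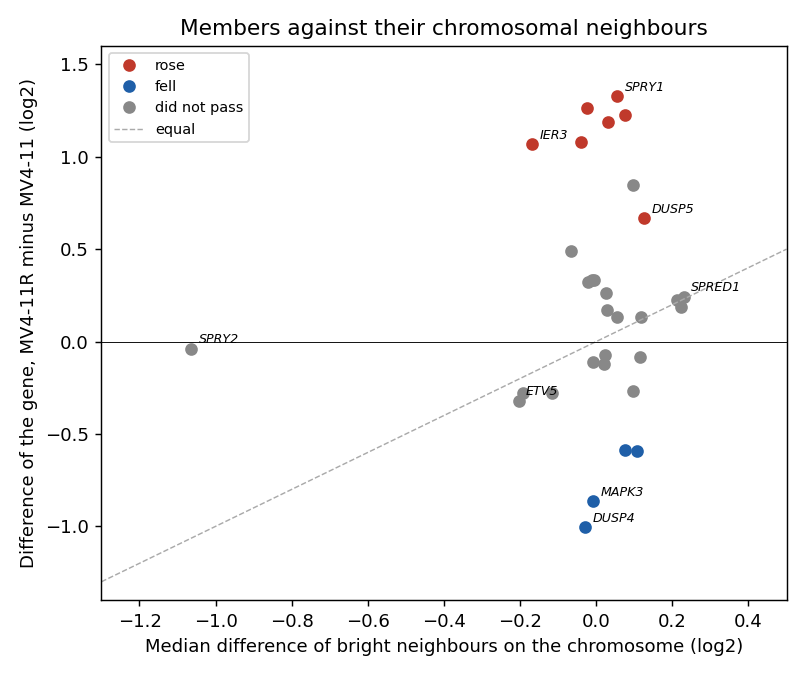
Difference of each measured member (y axis, MV4-11R minus MV4-11, log2) against the median difference of the bright genes around it on its chromosome (x axis, log2, 15 on each side); the dashed line marks equal values. SPRY2 stands alone on the left at -1.06, with its own difference near 0, and the rises and falls lie around a neighbour median of 0.

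The ETV factors, ETS family regulators that ERK induces, gave 1 rise among 3 and spread widely between arrays of the same line. With 7.92% of all genes rising, 1 rise in so short a list says little. ETV4 (Entrez gene 2118, chromosome 17) read 9.11 and 8.15 in MV4-11R, against 7.54 and 7.27 in MV4-11, a 2.34-fold rise (difference 1.23, SE 0.30, adjusted p = 0.0467). ETV5 read 10.21 and 9.31 in MV4-11R and 10.57 and 9.59 in MV4-11, so that replicate 1 was above replicate 2 by 0.90 in MV4-11R and 0.98 in MV4-11, and the difference between lines was -0.32 (95% interval -1.29 to 0.65, adjusted p = 0.693). Those gaps lay at percentile 99.3 of all genes in MV4-11R and 99.8 in MV4-11. In ETV1, near the background guide in both lines, replicate 1 was above replicate 2 by 0.51 in MV4-11R and 0.37 in MV4-11, with a difference of 0.13 between lines (adjusted p = 0.763). The ETV4 call was lost without MV4-11R replicate 1 (difference 0.75, adjusted p = 0.0504), MV4-11 replicate 1 (adjusted p = 0.0700) or MV4-11 replicate 2 (0.120), and the ETV5 difference ran from -0.81 to 0.17 with 1 array left out.

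Of the remaining outputs, IER3, an early response gene that affects cell survival (Entrez gene 8870, chromosome 6), read 8.71 and 8.87 in MV4-11R, against 7.57 and 7.88 in MV4-11. It rose 2.10-fold (difference 1.07, SE 0.14, adjusted p = 0.00799). Of its 3 probe sets 2, among them the one kept, hold identical values on every array, and the remaining one differed by 1.33. PHLDA1, an ERK-induced gene used in scores of pathway output, read 7.29 and 8.12 in MV4-11R and 6.72 and 6.99 in MV4-11. The lines did not overlap, but the MV4-11R arrays lay 0.83 apart, and the difference of 0.85 (SE 0.27) gave an adjusted p of 0.0952. PHLDA1 stood at 1.26 (adjusted p = 0.0113) without MV4-11R replicate 1 and at 0.43 (0.173) without MV4-11R replicate 2, and without either MV4-11 array the adjusted p was 0.261 or 0.119. EPHA2, an ephrin receptor induced by ERK, and EPHA4, another ephrin receptor, did not pass, with differences of 0.13 and -0.08.

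**Figure D4:**
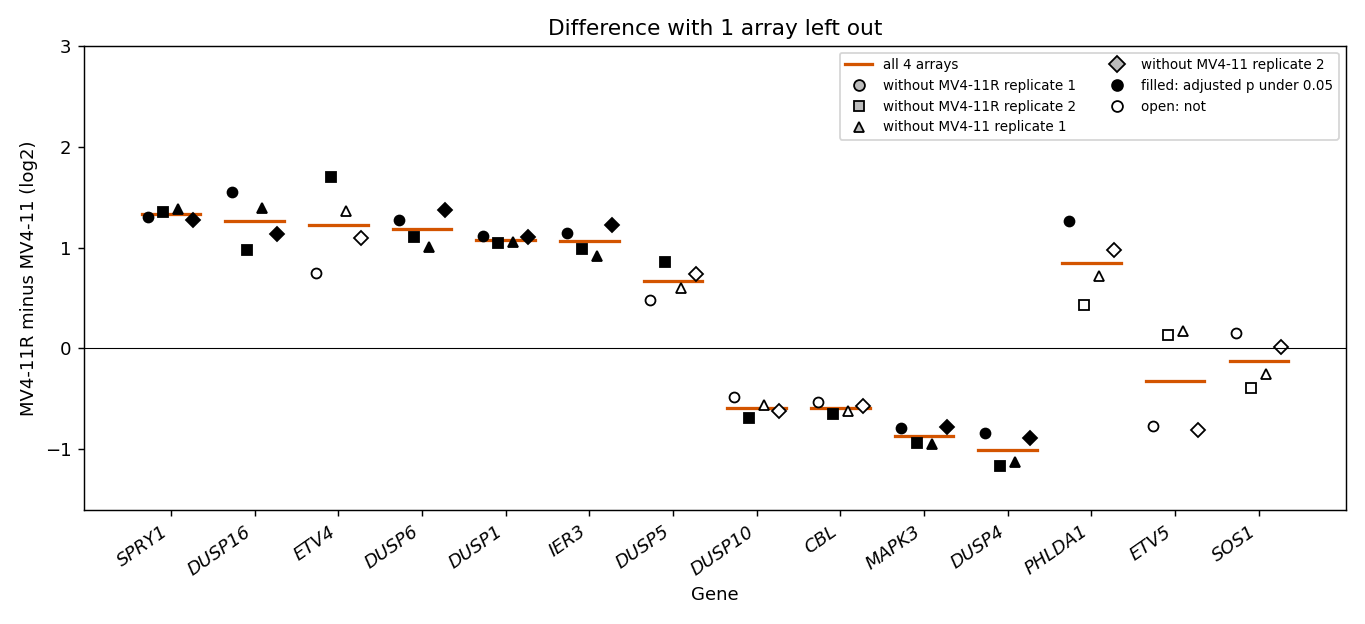
Difference between the lines (y axis, MV4-11R minus MV4-11, log2) with all 4 arrays (bar) and with each array left out (symbols), filled where the adjusted p of limma was under 0.05, for the 11 members that passed and for PHLDA1, ETV5 and SOS1. SPRY1, DUSP16, DUSP6, DUSP1, IER3, MAPK3 and DUSP4 passed with any 1 array left out, and ETV5 and SOS1 took either sign.

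Other genes of the pathway, listed from textbook roles with earlier results of these data known, were described in the same way. Of 117 listed genes 105 were measured, of which 12 rose, 13 fell and 80 did not pass. Among 22 other ERK output genes 8 rose and 0 fell (36.4% rising, against 7.92% of all genes), with a median difference of 0.41. The other 14 did not pass, and 6 of the 22 had a negative difference. Those that did not pass include EGR1 (0.84, adjusted p = 0.1685 in limma), FOS (0.63, 0.156), MYC (0.26, 0.170), KLF6 (-0.39, 0.134) and TRIB2 (-0.43, 0.126). TRIB1, a pseudokinase gene, rose 2.90-fold, with a mean of 9.74 in MV4-11R and 8.20 in MV4-11 (adjusted p = 0.00154). The transporter gene SLCO4A1 rose 1.88-fold (adjusted p = 0.00503) and ODC1, the first enzyme of polyamine synthesis, 2.29-fold (adjusted p = 0.0363). The other rises, named after their values were seen, were of the AP-1 subunit FOSL1 (0.88), the EGF receptor ligand HBEGF (0.86), cyclin D1 gene CCND1 (0.79), the urokinase receptor gene PLAUR (0.75) and IER2 (0.73). Calls on ODC1 were lost without MV4-11R replicate 1 (adjusted p = 0.109) or MV4-11 replicate 2 (0.0795), and those on PLAUR (0.39, adjusted p = 0.0678) and IER2 (0.35, adjusted p = 0.173) with their neighbours' median taken off. HBEGF, CCND1 and IER2 each lost theirs without at least 2 of the 4 arrays, with adjusted p up to 0.0919, 0.0976 and 0.0898.

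Upstream genes outside the member list fell or did not pass. Of 13 further genes from RAS to ERK 0 rose and 3 fell: SHOC2, the scaffold that helps to activate RAF, by 0.91 on the log2 scale (adjusted p = 0.00766), the scaffold IQGAP1 by 0.79 (adjusted p = 0.00830) and the RAF scaffold CNKSR2, which was under the background guide in MV4-11R, by 0.90 (adjusted p = 0.0145). Of 22 further adaptors and RAS regulators 0 rose and 3 fell. Among all genes 7.92% rose and 7.13% fell, so 0 rises in lists of 13 and 22 genes say little. GAB1, a docking protein that binds GRB2 and SHP2, averaged 6.78 in MV4-11R and 8.53 in MV4-11, a 3.35-fold fall (adjusted p = 0.00372) for the brighter of its 2 probe sets. The dimmer one differed by 0.043 (unadjusted p = 0.737 in limma over all probe sets), and the mean of both by -0.85 (adjusted p = 0.0153). RASA3, a GTPase-activating protein of RAS family members, averaged 9.18 in MV4-11R and 10.75 in MV4-11 (difference -1.57, adjusted p = 0.00154), and it lies on chromosome 13 among neighbours with a median of -0.93, without which it stood at -0.64 (adjusted p = 0.0172). CBLB, a relative of CBL, differed by -0.93 (adjusted p = 0.0217), with neighbours at -0.51, and its call was lost with those taken off (-0.42, adjusted p = 0.169), without MV4-11R replicate 1 (0.0687) or without MV4-11 replicate 2 (0.0630).

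ERK effectors and further phosphatases had both rises and falls, and the sister cascades had falls alone. The shares rising were 11.8% of effectors, 12.5% of phosphatases and 0% of the sister cascades, against 7.92% of all genes. The shares falling were 17.6%, 6.25% and 20% in the same order, against 7.13%. Each share rests on few genes. Of 17 effectors 2 rose, BCL2L11, the death gene BIM (0.77, adjusted p = 0.0474), and the RSK kinase gene RPS6KA1 (0.62, adjusted p = 0.0260). Another RSK gene, RPS6KA2, fell by 1.40 (adjusted p = 0.00461), the transcription factor ETS2 by 0.72 (adjusted p = 0.0109) and RPS6KA5 by 0.63 (adjusted p = 0.0175). Among 16 further phosphatases DUSP19 (0.74, under the background guide in both lines) and DUSP14 (0.64) rose, and DUSP3, which acts on ERK and JNK, fell by 0.92 (adjusted p = 0.00580). Of 15 genes of the JNK, p38 and ERK5 cascades 0 rose and 3 fell, MAP3K1 by 1.21 (adjusted p = 0.00266), MAP3K8, a kinase that feeds ERK, by 0.92 (adjusted p = 0.0391) and MAP2K6 by 0.77 (adjusted p = 0.0494). Calls on BCL2L11, RPS6KA1, RPS6KA5, DUSP14, MAP3K8 and MAP2K6 were each lost without 1 or more single arrays, with adjusted p up to 0.159. With the neighbours' median taken off, DUSP19 (0.40, adjusted p = 0.0682), DUSP14 (0.43, 0.0958), MAP3K8 (-0.58, 0.128), RPS6KA1 (0.47, 0.0577), BCL2L11 (0.71, 0.0586) and MAP2K6 (-0.76, 0.0513) lost their calls.

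**Figure D5:**
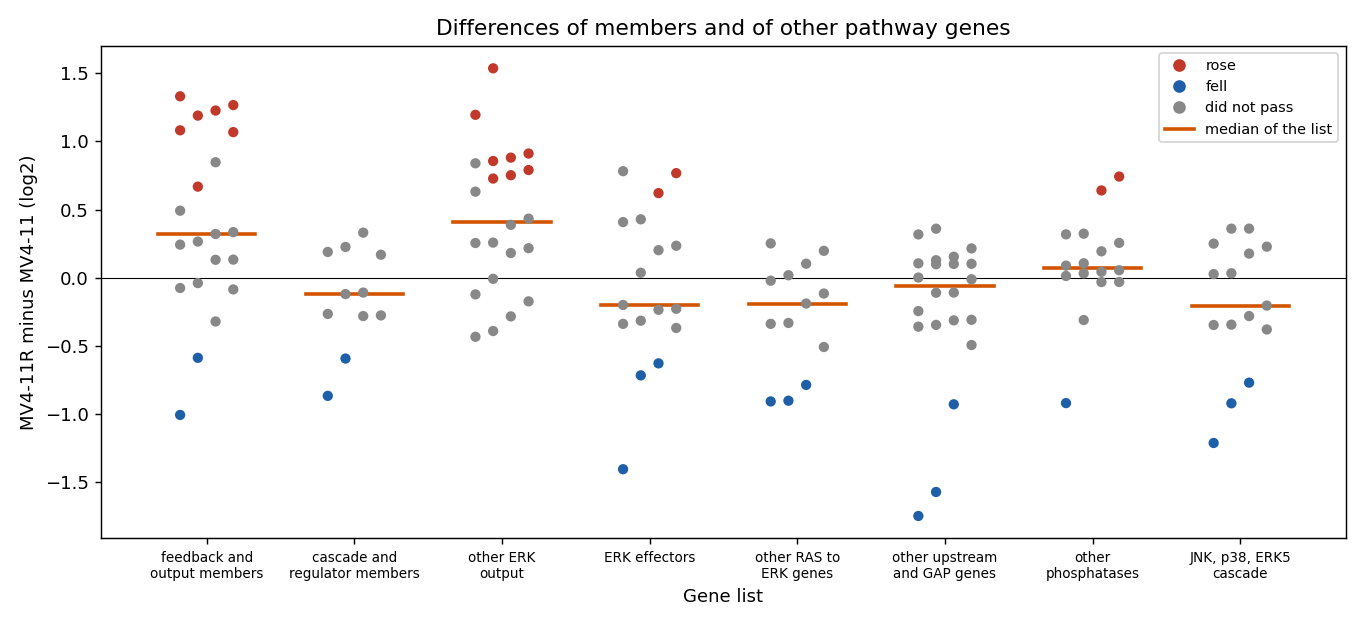
Differences of single genes (points, y axis, MV4-11R minus MV4-11, log2) in the 2 groups of members and in 6 lists of other pathway genes (x axis), with the list's median as a bar, rises in red, falls in blue and genes that did not pass in grey. Rises gather in the feedback and output members (7 of 21) and in the other ERK output genes (8 of 22), and the lists of genes upstream of ERK hold 0. Among all genes 7.92% rose, so 0 rises in lists this short say little.

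Arrays of the lines did not overlap for 26 of 32 members, against 55.6% of all genes, so the absence of overlap was common in these data. All 11 cascade and regulator genes measured lay above the background guide in both lines, and 4 of the 21 feedback and output genes lay under it in both (SPRY4, SPRED1, ETV1 and EPHA4). Over all 18417 genes 5513 lay under it in both lines, so most genes were not. Leaving out 1 array left between 7 and 11 members that passed, with 7 without either MV4-11 array, and 6 passed in a test of each of the 33297 probe sets.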

How the data were processed

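Values used were the deposited log2 signals of 33297 probe sets on 4 arrays. Per the submitters' processing notes, RMA in Affymetrix Expression Console made these values, with versions and genome build not given in the sources used here. GEO's platform annotation gave 1 gene for 19460 probe sets, several for 1754 and no entry for 12083. Symbols were updated through RefSeq, where 29 gene IDs had no match. The probe set with the highest mean stood for each of 18417 genes. limma 3.58.1 in R 4.3.3 (lmFit and eBayes, 2-sided) compared MV4-11R with MV4-11 without a replicate term, with Benjamini-Hochberg adjustment over all genes. The code was run on simulated data, which cannot show whether the arrays of a line came from separate cultures. Every measured member is named, with up to 3 rises and 3 falls per list of other pathway genes and with FLT3 and EZH2. The 5 other rises among ERK output genes, the ERK output genes named as not passing and the cell type markers were named after their values were seen. Members, lists and alternatives were chosen with earlier results of these data known. The number of arrays limits the precision: with 2 per line, moderate differences can miss the threshold. Alternatives were median centring, quantile normalization, filters on dim genes, the mean of a gene's probe sets, every probe set tested, eBayes with trend, a replicate block, removal of the neighbours' median and leaving out each array.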

Additional observations from a re-analysis of the deposited data

How the results depend on the processing

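With the neighbours' median removed, and treated as exact, SPRY2 stood at 1.02 and passed, and MAP2K2 at -0.03 without passing, both with their sign turned. Leaving out 1 array turned the sign of SOS1, SPRY2, ETV1 and ETV5, none of which passed. Testing every probe set left 6 members that passed, 5 feedback and output genes and 1 cascade gene. DUSP16, CBL, DUSP10, DUSP5 and ETV4 lost their calls there (adjusted p in limma 0.0537, 0.0616, 0.0763, 0.102 and 0.126). With 1 array left out the passing members numbered 7 to 11 and those of the cascade 1 to 2. The line left with 1 array is then assumed to vary like the other. The median difference of feedback and output genes was 0.29 with median centring, 0.49 over genes above the background guide, 0.34 with the neighbours' median removed and 0.21 to 0.45 with 1 array left out. For the cascade it was -0.15 with median centring, -0.10 with the neighbours' median removed and -0.26 to -0.078 with 1 array left out. With the replicate block 12 members passed (8 rose and 4 fell), PHLDA1 joining at an adjusted p of 0.0216, and 3642 genes passed in all, against 2772 without it. Deviations of same-numbered arrays correlated at 0.26 over genes, but with 2 pairs and no label that ties them the numbers were not taken as pairs. Over all genes 1505 passed with every probe set tested. Leaving out the first or the second MV4-11 array gave 1588 or 1638, and leaving out the first or the second MV4-11R array gave 1699 or 2479. The cause of these shifts was not tested. Dim members (SPRY4, SPRED1, ETV1 and EPHA4) lay under the background guide, so their differences are poorly measured.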
